A study of Macaca mulatta with 16 samples.

Results

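The miR-181 family was examined in small RNA libraries of the fetal rhesus monkey (Macaca mulatta) retina. Members were taken by name: a listed miRNA belonged to the family when its name, without the species prefix, a copy number and the arm, read miR-181a, miR-181b, miR-181c or miR-181d. Of 339 listed miRNAs, 6 were members, namely miR-181a-5p, miR-181a-3p, miR-181b-5p, miR-181c-5p, miR-181c-3p and miR-181d. Here 5p and 3p name the 2 arms of the hairpin precursor from which a mature miRNA is cut. The name miR-181d carried no arm, and it was set beside the 5p members as an assumption.

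The samples were retinal punches of untreated fetuses from normal pregnancies. Punches from temporal retina, which holds the presumptive fovea, were set against punches from nasal retina at the same distance from the optic nerve head. miRNA was measured at 50 days of gestation only, with 3 temporal and 3 nasal libraries. RNA depleted of ribosomal RNA was measured at 50, 90 and 150 days. For the latter the labels name polyA RNA as the molecule, while the protocol and the paper name removal of ribosomal RNA. Punch size did not scale with the eye, so the youngest punches also hold retina outside the future fovea. Nothing in the labels ties a library to an animal, so p-values measure only the spread between these samples, which may be technical.

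miRNAs are cut from hairpin precursors by DROSHA and DICER1 and are loaded into Argonaute proteins, where bases near the 5′ end, the seed, pair with target mRNAs and lower their translation or stability. The miR-181 members cut from the same arm as the listed miR-181b share a seed in mammals. They are made from separate clusters, so that several loci feed 1 set of targets. Neither the shared seed nor the shared targets are claimed for the members cut from the opposite arm. In the retina of fish and mice the family is known from inner retinal neurons, where it has been tied to axon growth of amacrine and ganglion cells and to the turnover of mitochondria. In blood the family is known for its part in lymphocyte development.

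Levels were deposited in TPM, a unit that scales each library to 1 fixed total, rounded to whole numbers. Read counts were not analysed here. The paper gives only an average number of reads per sample, so the depth of each single library is unknown. The 6 columns of listed miRNAs summed to between 309924 and 353553 TPM in temporal libraries and between 178383 and 358430 TPM in nasal libraries. Because of these unequal sums, each library was also rescaled by its median ratio to the geometric mean over miRNAs, and the tests below use these rescaled values unless deposited TPM is named. The median difference over 283 miRNAs of at least 5 mean TPM was 0.01 on the log2 scale after rescaling and 0.52 on deposited TPM, so the choice of scale moved the median by 0.51. One library stood apart: nasal 2 held 551 TPM of miR-126, an endothelial miRNA, and 288 TPM of miR-143-3p, a smooth muscle miRNA. Elsewhere miR-126 ranged from 21 to 42 TPM in temporal libraries and was 25 and 24 TPM in nasal 1 and nasal 3. miR-143-3p ranged from 3 to 5 TPM in temporal libraries and was 2 and 3 TPM in those 2 nasal libraries.

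miR-181a-5p was the family's most abundant member. It stood at 6470, 4987 and 4745 TPM in temporal libraries 1, 2 and 3, against 3353, 3372 and 2676 TPM in nasal libraries 1, 2 and 3. It ranked 12, 19 and 16 among the 339 miRNAs in the temporal libraries, against 15, 22 and 21 in the nasal libraries. On deposited TPM every temporal library lay above every nasal one, while the ranks overlapped.

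miR-181b-5p, which differs from miR-181a-5p by few bases and is cut from the neighbouring hairpin of the same clusters, was the next most abundant. Its level was 3029, 2716 and 2434 TPM in temporal libraries, against 1635, 1813 and 1449 TPM in nasal libraries. miR-181d had 1020, 996 and 836 TPM in temporal libraries, against 585, 682 and 497 TPM in nasal libraries. For both miRNAs the lowest temporal library was above the highest nasal one.

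The 3p arms were far less abundant. miR-181a-3p, the 3p arm listed under the name miR-181a, had 164, 147 and 154 TPM in temporal libraries, against 76, 98 and 78 TPM in nasal libraries. miR-181c-3p had 49, 46 and 40 TPM in temporal libraries, against 22, 22 and 21 TPM in nasal libraries. In both, the regions did not overlap. miR-181c-5p, the least abundant member, had 12, 10 and 7 TPM in temporal libraries, against 8, 9 and 4 TPM in nasal libraries, and its regions overlapped. In all, 5 of 6 members had every temporal library above every nasal one on deposited TPM, where 41.7% of the 283 miRNAs did so and 3.89% had every temporal library below.

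Rescaling brought the regions together. miR-181a-5p then had 5889, 3662 and 4000 TPM in temporal libraries, against 4838, 3022 and 3673 TPM in nasal libraries. Temporal 1 was the highest library and nasal 1 the next, so the regions overlapped. Between libraries of the same number, temporal was above nasal in 3 of 3 pairs for 5 of 6 members, miR-181c-5p being the exception with 1 of 3. The share of all tested miRNAs with 3 of 3 was not computed, so this count cannot be judged as a family trait. That share is at least 22.3%, the miRNAs with every rescaled temporal library above every nasal one. The labels do not say that a number marks 1 animal, and in the limma fit with the number as a block no member passed the threshold (lowest adjusted p = 0.104). miR-181c-3p, with 44.6, 33.8 and 33.7 rescaled TPM in temporal libraries and 31.7, 19.7 and 28.8 in nasal libraries, was the only one of the 6 members whose regions stayed apart in this direction, beside 22.3% of all tested miRNAs. Nasal 2 was the lowest of the 6 libraries for every member except miR-181c-5p.

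**Figure D1:**
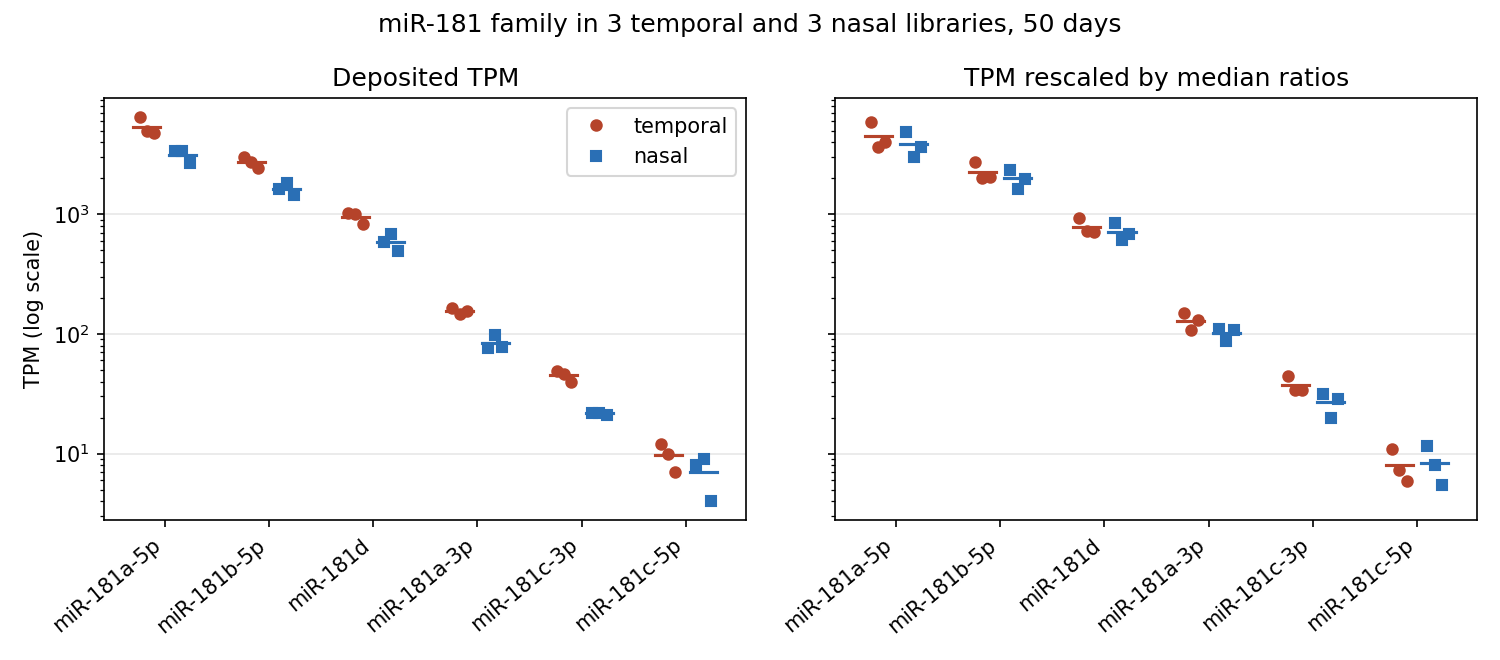
Level of each miR-181 member in TPM on a log axis, as deposited (left) and after rescaling by median ratios (right); circles are temporal libraries, squares nasal libraries and short lines region means (3 libraries each). On deposited TPM only miR-181c-5p overlaps between regions, and after rescaling only miR-181c-3p does not.

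The family took 3.47%, 2.52% and 2.42% of all listed TPM in temporal libraries, against 3.18%, 1.67% and 1.98% in nasal libraries. This share does not change when a library is multiplied by a factor, but it depends on the other miRNAs listed in that library. Its ranges overlapped, and it was higher in temporal retina in 3 of 3 same-numbered pairs. The 6 members kept 1 order of abundance in 6 of 6 libraries: miR-181a-5p, miR-181b-5p, miR-181d, miR-181a-3p, miR-181c-3p and miR-181c-5p. miR-181a-5p was between 1.84 and 2.14 times miR-181b-5p in single libraries, and miR-181b-5p was between 2.66 and 2.97 times miR-181d. At the low end, miR-181c-3p was between 2.44 and 5.71 times miR-181c-5p.

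The proportions among the 5p members were close in both regions. miR-181a-5p made up 59.3% ± 2.09 of their summed TPM in temporal libraries and 58.4% ± 1.44 in nasal libraries (SD, n = 3 each). miR-181b-5p made up 30.1% ± 1.23 in temporal libraries and 30.5% ± 1.06 in nasal libraries. miR-181d made up 10.5% ± 0.879 in temporal libraries and 10.9% ± 0.588 in nasal libraries. The remaining share, that of miR-181c-5p, was 0.105% ± 0.0157 in temporal libraries and 0.128% ± 0.0360 in nasal libraries.

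All 6 pairs of 5p members were compared within libraries, where scaling has no part. The log2 ratio of miR-181a-5p to miR-181b-5p differed by 0.04 between temporal and nasal libraries, and that of miR-181b-5p to miR-181d also differed by 0.04. The largest difference was 0.26, for miR-181a-5p over miR-181c-5p. In an exact two-sided permutation test, whose smallest possible p with 3 against 3 is 0.1, raw p ranged from 0.4 to 0.7 and the Benjamini-Hochberg adjusted p was 0.7 for each pair. With 3 libraries a region this test could not reach 0.05, so it neither shows a difference nor its absence. With libraries paired by number, miR-181a-5p over miR-181d and over miR-181c-5p were higher in temporal retina in 3 of 3 pairs. For these the exact sign-flip permutation p is 0.25, the smallest that 3 pairs allow. Every other ratio of 5p members was higher in temporal retina in 2 of 3 pairs.

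The ratio of miR-181b-5p to miR-181d was among the steadiest in the table. Its SD over the 6 libraries was 0.0628 on the log2 scale, and 0 of 1596 pairs among the 57 miRNAs of at least 500 mean TPM had a smaller one. The SD was 0.0903 for miR-181a-5p over miR-181b-5p, with 6 pairs smaller, and 0.135 for miR-181a-5p over miR-181d, with 23 smaller. The median over all pairs was 0.453. The 5p members are close in sequence, and how reads that match several of them were assigned is not given in any source used, so their split, and how steady it looks, is uncertain.

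In the comparison of regions, 0 of 6 members passed the threshold. The test was limma on log2(rescaled TPM + 1) with Benjamini-Hochberg adjustment over the 283 miRNAs at 0.05, and it called 27.9% of those miRNAs, 38 higher (13.4%) and 41 lower (14.5%) in temporal retina. At an unadjusted p under 0.05 the count of members was also 0, beside 41.7% of all tested. The members' median difference was 0.21 on the log2 scale, beside 0.01 over all tested miRNAs, and 5 of 6 members had a positive difference, beside 50.5% of all tested.

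For the 5p arms the estimates were small beside their error. miR-181a-5p had a temporal to nasal fold of 1.17 with a 95% interval of 0.801 to 1.71 (log2 difference 0.23, SE 0.24, limma adjusted p = 0.519). miR-181b-5p had a fold of 1.14, with an interval of 0.835 to 1.55 and a limma adjusted p of 0.517. miR-181d had a fold of 1.11, with an interval of 0.834 to 1.47 and a limma adjusted p of 0.579. All 3 intervals include equal levels, and their upper ends leave room for a higher temporal level. For miR-181c-5p the fold was 0.976 with an interval of 0.603 to 1.58 (limma adjusted p = 0.924), and the sign of its difference changed under 2 other rescalings and on deposited TPM.

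The 3p arms had the larger estimates. miR-181c-3p had a fold of 1.40 with an interval of 0.953 to 2.05 (log2 difference 0.48, SE 0.24, limma adjusted p = 0.164), and miR-181a-3p had a fold of 1.26 with an interval of 0.939 to 1.70 (log2 difference 0.34, SE 0.19, limma adjusted p = 0.210). Neither passed the threshold. On deposited TPM both did, with log2 differences of 1.02 for miR-181c-3p (limma adjusted p = 0.0141, range over the alternatives 0.0141 to 0.455) and 0.88 for miR-181a-3p (limma adjusted p = 0.0223, range 0.0223 to 0.511). That made 2 of 6 members, beside 28.3% of the 283 miRNAs, with 77 of them higher (27.2%) and 3 lower in temporal retina. On that scale the limma adjusted p of the other members was 0.0511 for miR-181a-5p, 0.0500049 for miR-181b-5p, 0.0545 for miR-181d and 0.312 for miR-181c-5p.

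Single libraries weighed on these estimates. The log2 difference of miR-181a-5p was 0.03 without temporal 1 and 0.05 without nasal 2, the library rich in vessel miRNAs, and 0.38 without nasal 1. That of miR-181c-3p was 0.27 without nasal 2. No member passed the threshold with any 1 library left out. In bulk tissue, fewer cells that make a miRNA and less of it per cell cannot be told apart.

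**Figure D2:**
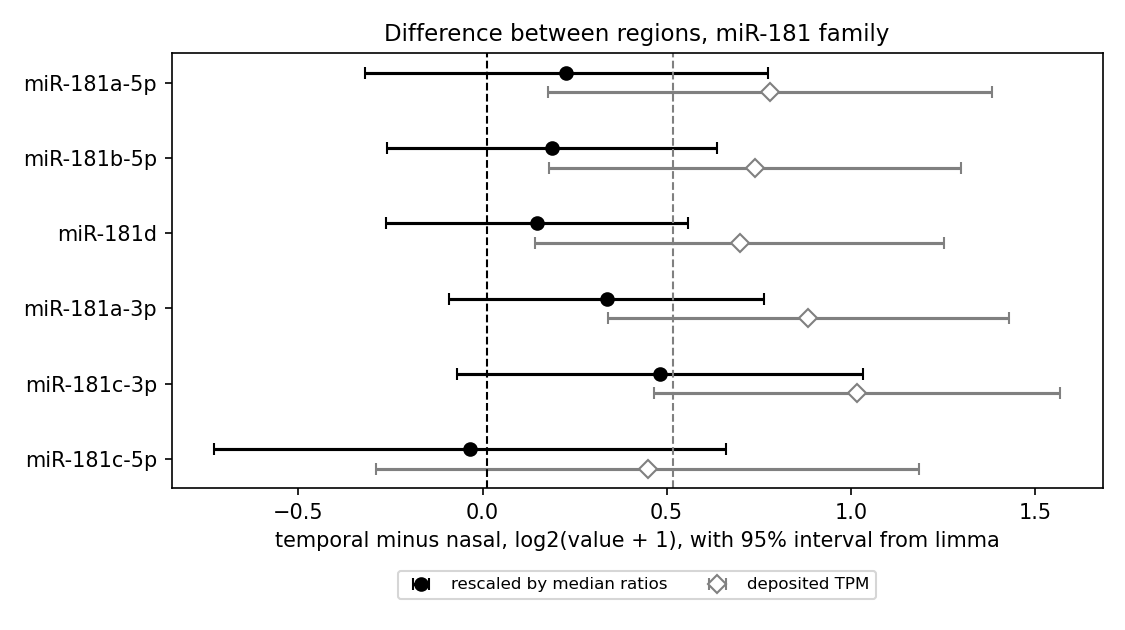
Temporal minus nasal difference of each member on the log2(value + 1) scale with its 95% interval from limma; filled circles are rescaled TPM and open diamonds deposited TPM, and dashed lines mark the median over all 283 miRNAs on the same scale (0.01 and 0.52). After rescaling every interval spans 0, and the shift between both sets of points is nearly the shift of the median.

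Arms were paired by hairpin name and compared as a ratio within each library. The name miR-181a covers 2 hairpin genes, mir-181a-1 and mir-181a-2, so its ratio need not be the arm preference of 1 hairpin. For miR-181a the 5p arm dominated: 5p over 3p was 39.5, 33.9 and 30.8 in temporal libraries, against 44.1, 34.4 and 34.3 in nasal libraries. The regions overlapped, with a log2 difference of -0.11 (SE 0.19, limma adjusted p = 0.645 over 62 hairpins with both arms measured). For miR-181c the 3p arm was the higher one in all 6 libraries: 5p over 3p was 0.245, 0.217 and 0.175 in temporal libraries, against 0.364, 0.409 and 0.190 in nasal libraries. The 5p arm was the higher one in 31 of the 62 hairpins. Temporal 1 and 2 lay above nasal 3, so the regions overlapped, and the log2 difference of -0.52 did not pass the threshold (SE 0.28, limma adjusted p = 0.128). Without nasal 3 the difference was -0.82 with a limma adjusted p of 0.0281, the lowest over the alternatives, which ranged up to 0.382. Of all 62 hairpins, 51.6% passed and 22.6% passed with a lower ratio in temporal libraries, so 0 of 2 for the family is read against a high background. miR-181c-5p was at most 12 TPM in whole-number values, which limits the precision of its ratio. How reads that match several 5p members were assigned is not given, so the level of miR-181c-5p and this ratio are also uncertain.

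**Figure D3:**
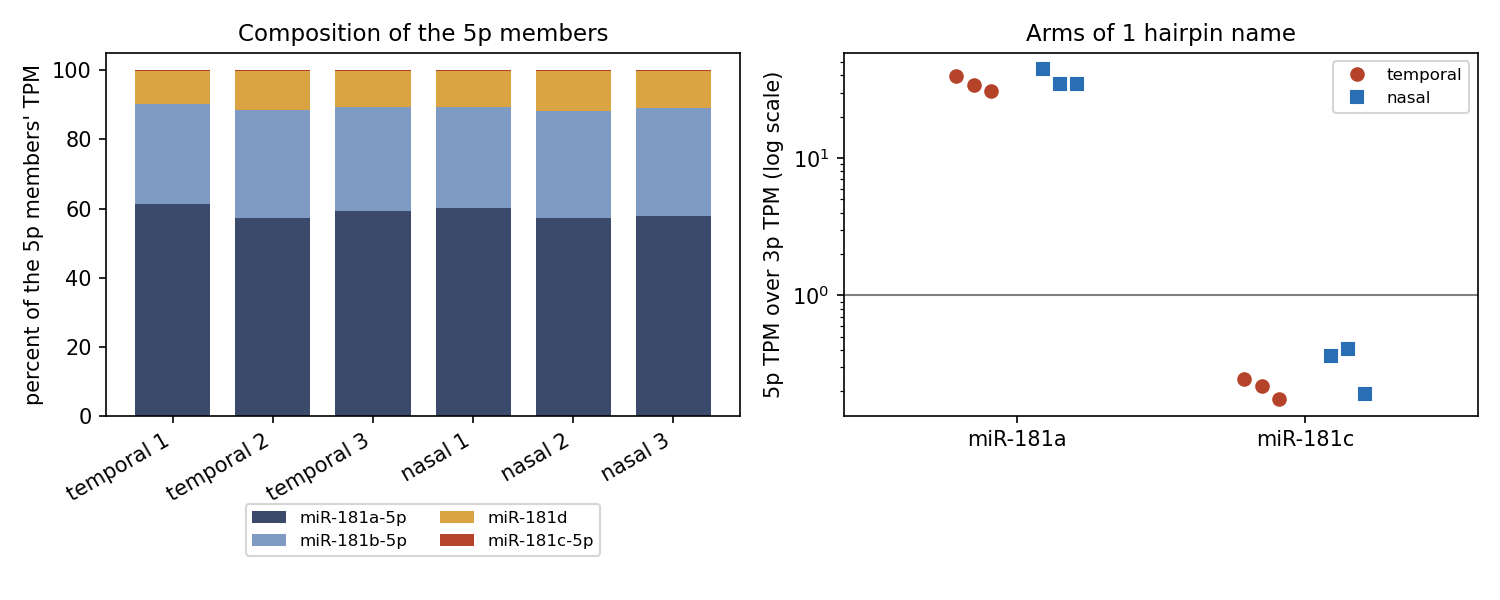
Left, share of each 5p member in the summed TPM of the 5p members, 1 bar a library. Right, 5p TPM over 3p TPM on a log axis for miR-181a and miR-181c, with circles for temporal and squares for nasal libraries. A line marks equal arms. Shares hardly differ between libraries, and the 2 hairpin names lie on opposite sides of the line.

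miR-181a-5p was also compared with the most abundant member of 3 other families. miR-124a-3p, the classic neuron-enriched miRNA, had 361, 234 and 207 TPM in temporal libraries, against 173, 139 and 125 TPM in nasal libraries. miR-181a-5p was between 17.9 and 24.3 times as abundant in every library. The log2 ratio of the 2 differed by -0.07 between regions (exact permutation p = 0.6, adjusted p = 0.6 over 3 comparators), and this difference turned positive without temporal 1 or without nasal 2.

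miR-182, of the sensory cluster with miR-183 and miR-96, had 894, 364 and 1161 TPM in temporal libraries, against 93, 262 and 118 TPM in nasal libraries. miR-181a-5p was 8.34 ± 4.90 times miR-182 in temporal libraries and 23.9 ± 11.6 times in nasal libraries (SD, n = 3 each). The log2 difference between regions was -1.56 (exact permutation p = 0.2, adjusted p = 0.3), and the ratio of temporal 2 lay above that of nasal 2. miR-182 itself was called higher in temporal libraries, by 1.79 on the log2 scale (limma adjusted p = 0.0248).

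let-7i-5p, of a family that rises as tissues mature, had 26466, 25801 and 37439 TPM in temporal libraries, against 18416, 38393 and 23404 TPM in nasal libraries. Relative to it, miR-181a-5p differed by 0.57 on the log2 scale between temporal and nasal libraries (exact permutation p = 0.2, adjusted p = 0.3). The smallest p this test allows is 0.1, so no comparator could have passed 0.05. For let-7i-5p the ratio was higher in temporal retina in 3 of 3 same-numbered pairs (exact sign-flip permutation p = 0.25, the smallest that 3 pairs allow). For miR-182 and for miR-124a-3p it was higher in 1 of 3 pairs.

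Across the 6 libraries, rescaled log2 levels of miR-181a-5p went along most closely with miR-124a-3p among 114 other miRNAs of at least 100 mean TPM (Pearson's r = 0.99). miR-186-5p followed with r = 0.90, miR-30c-5p with 0.78, miR-16-5p with 0.77 and miR-216a-5p with 0.76, where the median over the 114 was -0.25. Within the family r with miR-181a-5p was 0.99 for miR-181b-5p, 0.98 for miR-181d, 0.86 for miR-181c-3p, 0.84 for miR-181a-3p and 0.64 for miR-181c-5p. These values describe 6 libraries that share their scaling factors. Rescaled miR-124a-3p was highest in temporal 1, at 329, and in nasal 1, at 250, and lowest in nasal 2, at 125, the same 3 libraries that mark the ends for miR-181a-5p.

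**Figure D4:**
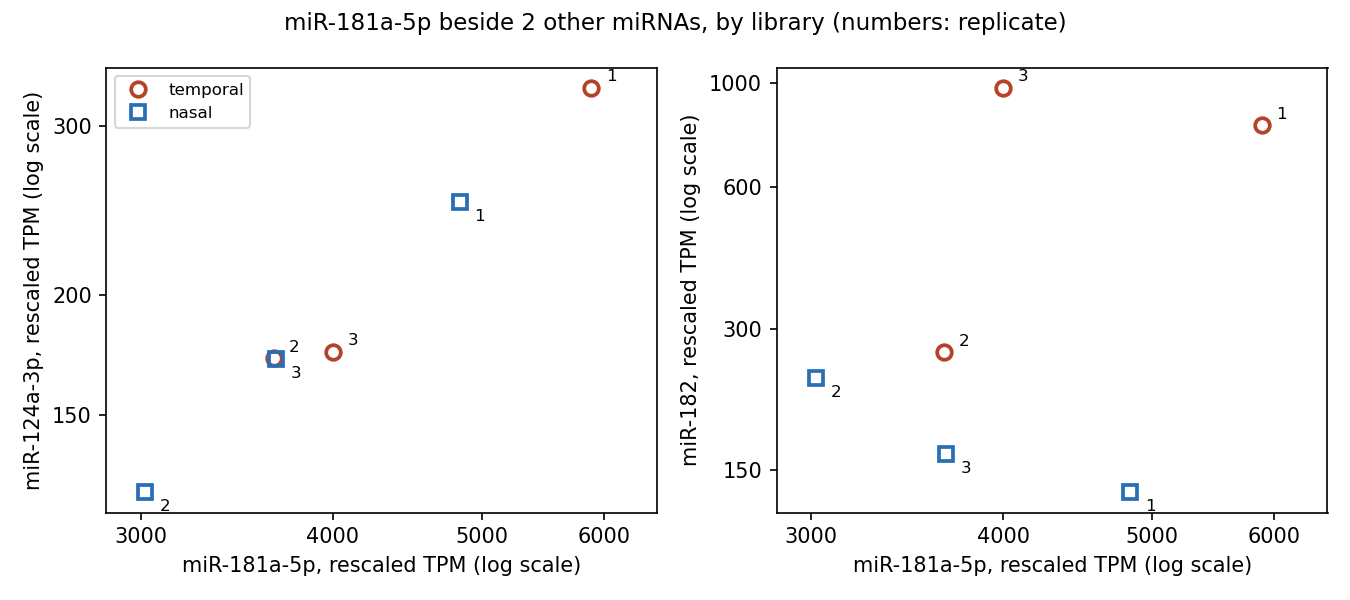
Rescaled TPM of miR-124a-3p (left) and miR-182 (right) against that of miR-181a-5p, both axes on a log scale; circles are temporal and squares nasal libraries, numbered by replicate. miR-124a-3p climbs with miR-181a-5p in both regions, while miR-182 is higher in every temporal library than in any nasal one.

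In the total RNA table, which lists 28633 genes with Ensembl identifiers and no positions, 479 hairpin genes had a row, and 6 of these were miR-181 hairpins. At 50 days this table gives the authors' mean per region in CPM, read counts scaled by library size, so no spread can be computed. mir-181a-1 was at 2.90 CPM in temporal retina and 3.34 CPM in nasal retina, and its cluster partner mir-181b-1 at 3.02 CPM in temporal and 3.75 CPM in nasal retina. mir-181a-2 was at 2.56 CPM in temporal and 2.63 CPM in nasal retina, and its partner mir-181b-2 at 4.47 CPM in temporal and 3.75 CPM in nasal retina. These 4 hairpins ranked between 11 and 22 of the 479 by their mean level, without regard to length, and none differed by 2-fold.

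mir-181c and mir-181d were near the limit of this table at 50 days. mir-181c was at 0.160 CPM in temporal and 0.110 CPM in nasal retina, and mir-181d at 0.0572 CPM in temporal and 0.110 CPM in nasal retina. Over the 6 hairpins, the sum was 13.2 CPM in temporal and 13.7 CPM in nasal retina. Whether reads of the copies of the miR-181a and miR-181b precursors can be told apart was not checked, so their split is uncertain. Hairpin CPM and mature TPM come from different libraries and cannot be set against each other as levels.

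**Figure D5:**
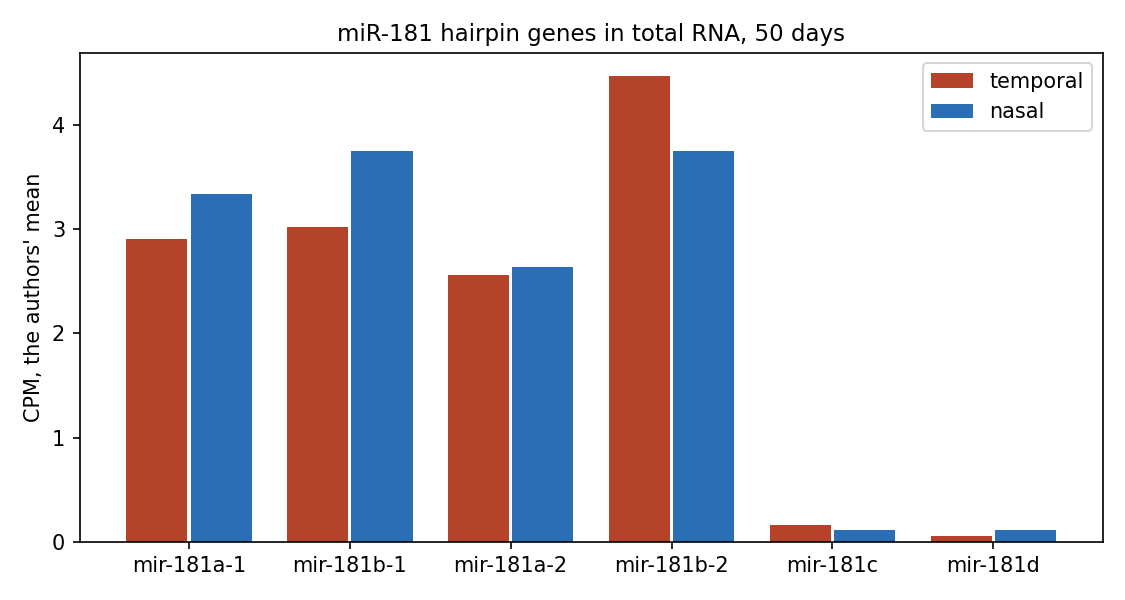
Authors' mean CPM of the 6 miR-181 hairpin genes at 50 days, temporal (left bar) and nasal (right bar); no error bars can be drawn. The hairpins of the first 2 clusters lie between 2.56 and 4.47 CPM, and mir-181c and mir-181d lie at or below 0.160 CPM.

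Hardly any hairpin read was left at the later ages, with 1 library per region. All 6 hairpins together had 2 reads in temporal and 4 reads in nasal retina at 90 days, and 3 reads in temporal and 5 reads in nasal retina at 150 days. mir-181a-1 had 0 reads in all 4 libraries, and a count of 0 allows up to 3 reads, or from 0.141 to 0.163 CPM. This was common among hairpins: of 51 hairpin genes of at least 1 CPM at 50 days, 29 were under 0.1 CPM at 90 days and 32 at 150 days. Libraries were read from single ends at 50 days and from paired ends later, so age and library type cannot be told apart. The paper's methods name single-end reads only, so the layout of the later libraries is uncertain. The mature miRNAs were measured at 50 days only.

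In the RefSeq annotation of assembly T2T-MMU8v2.0, used here for neighbours only, MIR181A-1 and MIR181B-1 are next to each other on chromosome 1. MIR181A-2 and MIR181B-2 are next to each other on chromosome 15 within the span of NR6A1, an orphan nuclear receptor of early embryos. MIR181C and MIR181D are next to each other on chromosome 19 within the span of NANOS3, a germ cell RNA-binding protein. NR6A1 (ENSMMUG00000011185) was at 3.40 CPM in temporal and 2.83 CPM in nasal retina at 50 days. At 90 days it was at 1.01 CPM in temporal and 1.18 CPM in nasal retina, a ratio of 0.860 with a 95% Clopper-Pearson interval of 0.453 to 1.61 for counting error only. At 150 days it was at 1.20 CPM in temporal and 0.549 CPM in nasal retina, a ratio of 2.18 with an interval of 1.01 to 4.98 from 22 and 11 reads. With both ages in 1 edgeR fit, its log2 difference was 0.39 with a Benjamini-Hochberg adjusted p of 0.920. NANOS3 (ENSMMUG00000008316), looked up after the hairpin positions had been seen, was at 0.309 CPM in temporal and 0.354 CPM in nasal retina at 50 days.

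Genes reported elsewhere as miR-181 targets were followed as a list of 22, of which 21 were found by symbol and 19 had at least 1 CPM at each age. At 50 days 14 of the 19 were higher in temporal retina and 5 lower, beside 6645 higher of all 13934 genes of that level. The list's median log2 ratio of CPM + 1 was 0.10, beside -0.02 over those genes. At 90 days 11 were higher and 8 lower in temporal retina, beside 7504 higher of 13785 genes. The list's median was then 0.01 beside 0.02 over all genes. At 150 days 9 were higher and 10 lower, beside 6241 higher of 14094 genes, with a median of 0.00 beside -0.04. None of the 19 differed by 2-fold at any age. The share of all genes 2-fold higher in temporal retina was 0.158%, 0.682% and 1.38% at 50, 90 and 150 days, and the share 2-fold lower was 0.689%, 0.501% and 0.788%. These ratios have no replicate check.

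COX11, COQ10B and PRDX3, reported as targets in the retina, had temporal to nasal ratios between 1.00 and 1.08 at 50 days. Among them, COX11, an assembly factor of cytochrome c oxidase, was at 74.8 CPM in temporal and 69.8 CPM in nasal retina. COQ10B, a coenzyme Q binding protein of mitochondria, was at 10.8 CPM in temporal and 9.96 CPM in nasal retina, and its ratio was 1.24 (95% interval 1.05 to 1.46, for counting error only) at 90 days and 1.33 (1.17 to 1.52) at 150 days. Its edgeR adjusted p over both ages was 0.640, the lowest of all listed target and maturation genes. PRDX3, a mitochondrial peroxidase, was at 143 CPM in temporal and 142 CPM in nasal retina at 50 days, and its ratio was 1.07 (1.01 to 1.13) at 90 days and 0.826 (0.778 to 0.877) at 150 days. For COX11 the ratio was 1.11 (1.03 to 1.21) at 90 days and 0.863 (0.797 to 0.934) at 150 days, so COX11 and PRDX3 lay on opposite sides of 1 at the later ages and COQ10B did not.

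At the extremes of the list at 50 days, BCL2, an inhibitor of apoptosis, was at 1.52 CPM in temporal and 2.71 CPM in nasal retina. DUSP5, a phosphatase that turns off ERK, was at 9.39 CPM in temporal and 7.45 CPM in nasal retina. TIMP3, a metalloproteinase inhibitor, was at 3.34 CPM in temporal and 4.42 CPM in nasal retina at 50 days. It was at 2.93 in temporal and 5.22 in nasal retina at 90 days, and 4.19 in temporal and 5.19 in nasal retina at 150 days. Its ratio was 0.562 (95% interval 0.402 to 0.779, for counting error only) at 90 days and 0.808 (0.594 to 1.10) at 150 days. Its edgeR adjusted p over both ages was 0.669. TIMP3 and BCL2 had the smaller value in temporal retina at all 3 ages, while COQ10B, NLK, PROX1 and XIAP had the larger. The share of all genes with 1 direction at all 3 ages was not computed.

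The machinery that makes miRNAs showed no regional difference of 2-fold either. Of 9 genes on the list 7 were found by symbol, and 5 were higher in temporal retina at 50 days, 1 at 90 days and 3 at 150 days. The list's median log2 ratios at these ages were 0.04, -0.16 and -0.03. Of all genes of at least 1 CPM, 6645 of 13934, 7504 of 13785 and 6241 of 14094 were higher in temporal retina. DROSHA, which cuts primary transcripts in the nucleus, was at 262 CPM in temporal and 248 CPM in nasal retina at 50 days. DICER1, which cuts the hairpin, was at 558 CPM in temporal and 542 CPM in nasal retina. TARBP2, a partner of DICER1, had the lowest ratio of the list, with 7.02 CPM in temporal and 11.2 CPM in nasal retina.

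Tissue markers were read beside these results. PAX6, a transcription factor of the retina, was at 776 CPM in temporal and 803 CPM in nasal retina at 50 days, and RAX, another, at 35.5 CPM in temporal and 31.9 CPM in nasal retina. SIX6 was at 37.4 CPM in temporal and 48.9 CPM in nasal retina, and SIX3 at 5.12 CPM in temporal and 7.23 CPM in nasal retina. Of 5 markers of inner retinal neurons found, 1 was higher and 4 were lower in temporal retina, beside 6645 higher of 13934 genes. The 5 markers summed to 439 CPM in temporal and 500.2 CPM in nasal retina. Of 4 vessel and mesenchyme markers found, the sum was 1.42 CPM in temporal and 19.7 CPM in nasal retina, with 2 of the 4, COL3A1 and CDH5, listed at 0 in temporal retina and none in nasal retina. Blood markers summed to 3.29 CPM in temporal and 10.8 CPM in nasal retina, with HBA1 listed at 0 in both and ALAS2 in temporal retina only. The 5 pigment epithelium markers summed to 23.6 CPM in temporal and 35.6 CPM in nasal retina. PMEL made up most of that, with 12.8 CPM in temporal and 23.8 CPM in nasal retina, while RPE65 was at 4.60 CPM in temporal and 4.15 CPM in nasal retina. Of 3 pigment epithelium miRNAs 1 passed the test: miR-204-3p was lower in temporal libraries, with 24, 51 and 41 TPM against 45, 106 and 63 TPM in nasal libraries (log2 difference -1.38, limma adjusted p = 0.00711). miR-204-5p, the dominant arm, had 6116, 9744 and 6091 TPM in temporal libraries, against 5456, 8829 and 6345 TPM in nasal libraries, with a rescaled log2 difference of -0.47 (limma adjusted p = 0.0731), and miR-211 had a difference of -0.68 (limma adjusted p = 0.0956). The part of vessel, blood, inner retinal and pigment epithelium cells in the members' levels was not tested, other than by leaving out nasal 2.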

How the data were processed

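Small RNA of 3 temporal and 3 nasal punches at 50 days was made into NEBNext libraries by the authors and mapped to miRBase release 20. No source used names the aligner or genome build. The deposited miRNA values are TPM rounded to whole numbers and were treated as a score. For total RNA the authors used Bowtie2, Tophat and Cufflinks on ribosome-depleted, stranded libraries; deposited values are a mean signal on the CPM scale at 50 days and CPM at 90 and 150 days. The authors' own fold changes, p-values and average columns in the miRNA table were not used, and 0 sample columns were left out.

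Members, lists and comparators were chosen with earlier results of these data known. Named were all members, the most abundant miRNA of 3 other families, the 5 miRNAs of at least 100 mean TPM most correlated with miR-181a-5p, the retinal targets and the extremes of the target list. The hairpin genes and NANOS3 were added after the data were seen. Some list genes not found by symbol were not analysed here. Some genes that the naming rule covers are not reported here.

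Libraries were rescaled by median ratios. miRNAs of at least 5 mean TPM were tested with limma 3.58.1 (eBayes with trend, R 4.3.3) on log2(value + 1), with Benjamini-Hochberg adjustment at 0.05; arms were fitted as a difference within a library. Ratios were tested by exact permutation. Same-numbered samples' deviations from their region's mean correlated by 0.50, 0.16 and 0.12 for replicates 1, 2 and 3. Pairs by consecutive sample code had -0.15, -0.19 and 0.22, the last above 2 of the 3 same-numbered pairs. Every same-numbered value was over 0.1, so a pairing by number was taken as possible, read from the data and not from the labels, and fitted as a block. No 2 libraries held identical values.

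CPM steps at 90 and 150 days gave whole reads for 100% of values (tolerance 0.01 reads), with 17429349 to 19851990 reads in all per library. edgeR 4.0.16 (quasi-likelihood, age and region), run on them as an alternative, called 2 of 16596 genes, none of them on the lists, and 1490 had an unadjusted p under 0.05. Gene lists were read on log2(CPM + 1) for genes of at least 1 CPM, and 2-fold genes needed 5 CPM on the higher side. Scripts were tested on simulated data and ran in Python 3.11.15 with pandas 2.3.3 and SciPy 1.17.1. Alternatives varied scaling, pseudocount, filter, variance trend, blocks and libraries left out.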

Additional observations from a re-analysis of the deposited data

How the results depend on the processing

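Of 237 alternative values, 11 had the opposite sign to the reported value, 3 passed a threshold it missed and 5 counts moved by over 1.5 times. NR6A1 at 90 days, a ratio without a test, also changed sign, with -0.22 on the log2 scale from single libraries and 0.39 in the edgeR fit over both ages. On deposited TPM 2 members were called instead of 0, miR-181c-3p (1.02 on the log2 scale) and miR-181a-3p (0.88). miR-181c-5p changed sign to 0.45 on deposited TPM, 0.0797 when rescaled to the table's total and 0.0108 by the upper quartile, and ranged from -0.30 to 0.18 with 1 library left out. The count of called miRNAs, 79, was 38 higher and 41 lower, against 77 and 3 on deposited TPM and 48 and 34 by the table's total. It ranged from 35 to 109 with 1 library left out, with 35 without temporal 1, 37 without nasal 3 and 50 without temporal 3, and was 52 with a block of consecutive sample codes. The replicate block gave 87 and changed no call of a member, whose lowest limma adjusted p was then 0.104. With 1 library left out, the arm difference ranged from -0.21 to 0.0110 for miR-181a, positive without nasal 1, and from -0.82 to -0.31 for miR-181c. Likewise miR-181a-5p ranged from -0.0189 to 0.0902 over miR-181b-5p and from -0.00338 to 0.17 over miR-181d, both negative without temporal 1, and from -0.14 to 0.0340 over miR-124a-3p. The cause of these shifts was not tested. Unknown depth of each single miRNA library, 3 libraries a region and whole-number TPM for the least abundant member limit what can be detected. So does 1 mRNA library a region at the later ages.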
